A study of Danio rerio with 49 samples.

Results

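The windows described here had nearly the same mean replication timing z-score in *rif1* mutant and wild-type zebrafish embryos at 3 consecutive stages. They were chosen on the deposited replication timing z-scores as windows with a mean difference, *rif1* mutant minus wild type (WT), under 0.2 in size at Shield, at Bud and at 24 hours post fertilisation (hpf). The rule kept 3757 of 120059 profile windows, or 3.13%, while 47849 windows (39.9%) lay at or past the limit at all 3 stages. They are called low-difference windows below. Because these same values chose them, their genotype differences at Shield, Bud and 24 hpf are descriptions without a test.

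Rif1 is a conserved chromatin protein that brings protein phosphatase 1 to chromatin, where it opposes the Dbf4-dependent kinase that fires replication origins. It is known in yeast and in mammalian cells for delaying replication of late domains, and its loss there alters the timing of many domains. In zebrafish embryos the first cleavage cycles are short, and a developed order of early and late domains appears as the cycle lengthens around and after the mid-blastula transition.

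The samples were Tab5-strain zebrafish embryos, WT or omf201 homozygotes, which carry a mutant allele of *rif1* on both copies. Whole-genome sequencing counted DNA in overlapping windows, mostly 60 kb wide and spaced 10 kb apart, and the ratio of S-phase to G1 DNA gave the timing, since early sequence is present in more copies during S phase. The z-score places a window within its own library in units of that library's standard deviation (SD) across windows, and a higher z-score is earlier. The preMBT stage, before the mid-blastula transition at 2 to 2.5 hpf, had 3 WT and 3 omf201 libraries, and Shield at 6 hpf had 6 WT and 5 omf201 libraries. These were pools of more than 100 whole embryos, taken as S phase without sorting. Bud at 10 hpf and the 24 hpf stage each had 4 S-phase and 4 G1 samples per genotype, sorted from stained nuclei, and the protocol's sorting sentence names a later age for the last stage. The G1 reference of each genotype pooled its 8 G1 libraries of Bud and 24 hpf, and it also served preMBT and Shield. Every sample is a mixture of all cell types of the embryo, and 1 mutant allele was examined. Libraries held 5.09 to 32.2 M counts (M, mega) in windows that do not overlap. At Shield, 3 pairs of libraries that differed by no more than sampling noise were each averaged and counted as 1 sample, leaving 4 per genotype. The 6 preMBT pairs of the same genotype also came near sampling noise, so p-values at preMBT may measure technical spread alone.

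A minority of windows lay under the limit at each stage. At Shield 36.5% of all windows had a difference under 0.2, at Bud 24.5%, and at 24 hpf 21.7%. The median absolute difference over all windows was 0.284, 0.417 and 0.501 at the 3 stages, against 0.0956, 0.101 and 0.0990 among the low-difference windows. Under the limit at 2 of the 3 stages were 19612 windows (16.3%), and at 1 stage 48841 (40.7%). The largest of a member's 3 differences had a median of 0.156, and 493 members stayed under 0.1 at all 3 stages. Just inside the limit, at 0.19 to 0.20, lay 466 windows with a median WT z-score at 24 hpf of -0.476. Just outside, at 0.20 to 0.21, lay 531 windows with a median of -0.373, so the limit cut through a continuous distribution.

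A small mean difference is no measure of absence of change. The median half-width of the 95% limma interval of a member's difference was 0.336 at Shield, 0.376 at Bud and 0.209 at 24 hpf. No member had an interval within 0.2 of zero at all 3 stages, and 1709 (45.5%) had intervals within 0.5 at all 3. At an adjusted p under 0.05 in limma, the background of called windows was 29.6% (Shield), 43.9% (Bud) and 73.3% (24 hpf), and 0, 0 and 33 of the members were called (0, 0 and 105 at an unadjusted p under 0.05). Of the 33 at 24 hpf 17 were higher and 16 lower in omf201, against 37.8% and 35.5% of all windows. These member counts follow from the rule.

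In WT embryos the low-difference windows were weighted towards late replication, and increasingly so with stage. Classes were taken from the mean WT z-score, as early over 0.5, late under -0.5 and middle in between. At 24 hpf, 1730 members (46.0%) were late against 34.5% of all windows, 1268 (33.8%) were middle against 31.2%, and 759 (20.2%) were early against 34.3%. At Bud 39.7% of members were late against 31.6%, and 22.9% were early against 36.2%. At Shield the late shares were close, 33.9% and 32.7%, while 39.0% of members were middle against 34.3%. At preMBT, which the rule did not use, 19.2% of members were late against 27.4% of all windows and 27.6% were early against 23.6%. The median WT z-score of members started at 0.0110 (preMBT) and went to -0.143 (Shield), -0.290 (Bud) and -0.410 (24 hpf). The WT values enter the rule from Shield onward, so these shares carry no test.

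**Figure D1:**
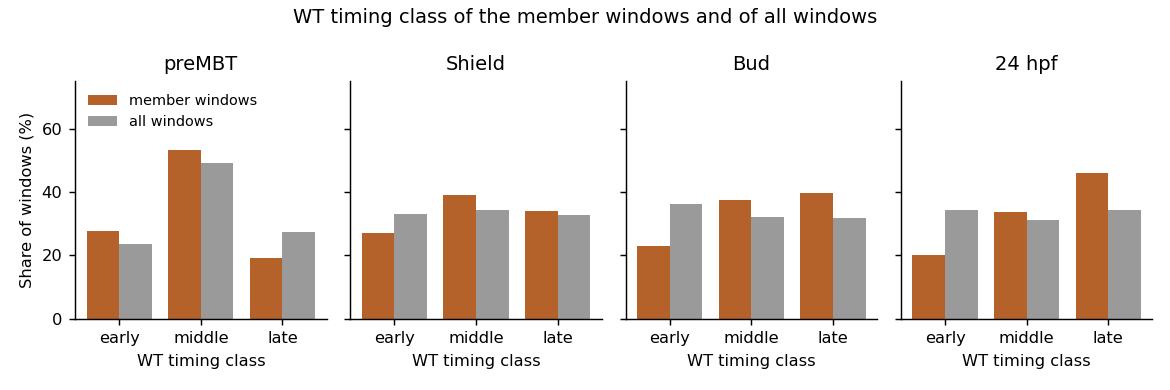
Share of windows (vertical axis, percent) that were early, middle or late in WT at each of 4 stages, for the 3757 low-difference windows and for all 120059 windows. At 24 hpf the late bar of the members stands at 46.0% against 34.5%, and the early bar at 20.2% against 34.3%.

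The lean towards late windows depended on the scale and centre used to define a small difference. With deposited log2 ratios centred on each library's median, and with differences divided by the SD of the mean WT profile, the same limit gave 4522 windows (3.77%), of which 525 were shared. The shared windows were 14.0% of the members and 11.6% of the log2 set. In the log2 set 14.4% of windows were late in WT at 24 hpf and 43.1% were early, the opposite lean. The centre changed along with the scale, as z-scores are centred on the library mean. At 24 hpf the median z-score over all windows was 0.0106 in WT and -0.211 in omf201. Whether scale or centre moved the lean was not tested. Membership also moved with the reference and the smoothing. With 1 G1 reference common to both genotypes 3390 windows were chosen and 1443 members (38.4%) were among them, and with unsmoothed ratios 2476 were chosen and 350 members (9.32%) were among them. The late share was 43.8% in the former, with the common reference for the classes as well, and 42.0% in the latter.

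Most members did not keep 1 class. Constant early windows, early in WT at Shield, Bud and 24 hpf, made up 439 members (11.7% against 19.6% of all windows), constant middle windows 398 (10.6% against 9.89%) and constant late windows 820 (21.8% against 19.97%). The other 2100 members (55.9% against 50.6%) switched class between these stages. Within the switching windows, 1039 members (27.7% against 19.3%) fell by over 0.5 in mean WT z-score from Shield to 24 hpf, and 451 (12.004% against 18.4%) rose by as much. Read the other way, 4.48% of all switching windows with such a WT fall were members. Of all switching windows with such a rise 2.04% were members, and of constant early windows 1.87%.

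On the log2 scale the members carried the smaller contrast of the whole omf201 profile. The log2 ratio keeps the size of the copy number contrast, which the z-score divides out. The SD of the log2 ratio across all windows was 0.204 to 0.224 in the 24 hpf WT samples and 0.158 to 0.167 in the omf201 samples. A window far from the mean with a matched z-score therefore has to differ in log2 ratio, and the values below describe this with no test. In members late in WT at 24 hpf the mean log2 ratio was -0.228 ± 0.00981 (SD, n = 4) in WT and -0.174 ± 0.00752 (SD, n = 4) in omf201 at that stage. The 4 WT samples ran from -0.242 to -0.219 and the omf201 samples from -0.180 to -0.166, without overlap. In members early at 24 hpf the WT samples ran from 0.204 to 0.215 and the omf201 samples from 0.164 to 0.178, also without overlap. In members that were middle the WT samples ran from -0.0214 to -0.00966 and the omf201 samples from -0.0161 to -0.0104, inside the WT range. The contrast between late and early members was thus smaller in omf201, while their z-scores were the same within 0.03, at -0.994 and -0.966 for late members and 1.11 and 1.11 for early members.

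After centring each library on its median, the members late at a stage were higher in omf201, 1272 of 1272 at Shield, 1491 of 1491 at Bud and 1730 of 1730 at 24 hpf, a count that the rule and the smaller SD largely fix. Their median log2 difference was 0.04 at Shield, 0.07 at Bud and 0.09 at 24 hpf, against 0.06, 0.12 and 0.16 over all windows late at those stages. Without centring the share was 100%, 100% and 96.6%. Early members were lower in omf201 at Shield, where 2 of 1021 were higher, and at Bud, where 61 of 861 were higher. At 24 hpf 339 of 759 early members were higher and the median log2 difference was -0.0032, against -0.06 for all early windows. Without centring, the mean log2 ratio of these early members was 0.211 in WT and 0.171 in omf201, so their near-zero difference depends on the centring. Of members middle at 24 hpf, 1199 of 1268 were higher after centring, though without it their omf201 samples lay inside the WT range. The rule thus acted on the z-score and left differences in the copy number contrast in place, so the windows are named here by the rule and not as insensitive to Rif1. Why the whole omf201 profile had the smaller contrast was not tested.

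**Figure D2:**
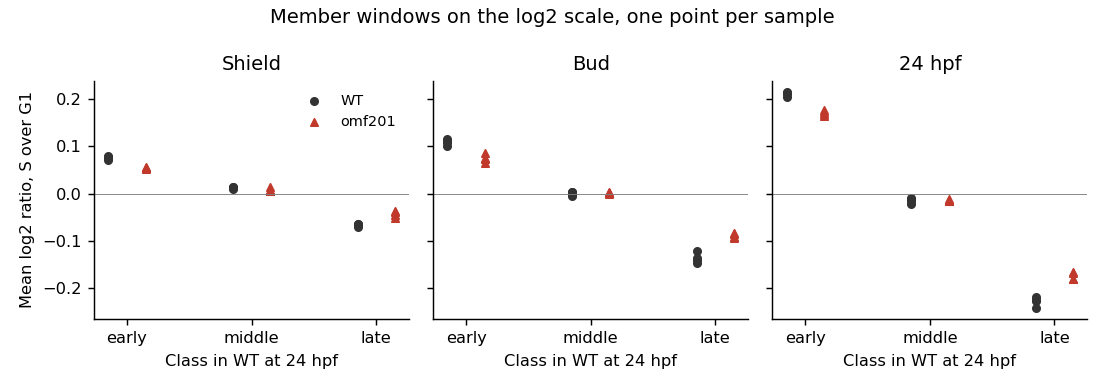
Mean log2 timing ratio, relative to G1 DNA, (vertical axis) of the low-difference windows in each sample at 3 stages, split by WT class at 24 hpf, with circles for WT and triangles for omf201. Late members sit higher in every omf201 sample than in any WT sample, from -0.180 to -0.166 against -0.242 to -0.219 at 24 hpf, and the early members sit lower.

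The members formed 479 runs of overlapping or touching windows, covering 65.4 Mb. The median run was 110.0 kb long and the range was 60 to 620.0 kb, with 50 runs of a single window and 22 runs of at least 300.0 kb. The longer ones held 17.5% of the members. By the mean WT profile over the run, 269 runs switched class, 108 were constant late, 51 constant middle and 51 constant early. Their median lengths were 110.0, 120.0, 100.0 and 110.0 kb. Neighbouring windows share reads and were smoothed by the authors, so a run is closer to 1 observation than to many. Among windows that do not overlap, 549 of 17649 were members, 3.11%.

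Many of the runs lay where the genotype difference changed sign, and a choice of windows with differences near 0 favours such places. The difference was read 200 kb outside each end of a run, and 456 runs had a window at both sides. The signs were opposite, with at least 1 side past the limit, around 244 runs (53.5%) at Shield, 315 (69.1%) at Bud and 305 (66.9%) at 24 hpf. Over all windows, with sides 450 kb apart as for a run of median length, the shares were 32.6%, 40.2% and 37.6%. At 1 or more stages this held for 407 runs (89.3%), at 2 or more for 305 (66.9%), and at all 3 for 152 (33.3%). Both sides had the same sign around 145, 122 and 125 runs at the 3 stages, and both sides were under the limit around 67, 19 and 26. None of the 456 runs had both sides under the limit at all 3 stages. With the sides read at 400 kb in place of 200 kb, the opposite share was 42.3%, 54.8% and 54.6%.

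Where the signs were opposite, the omf201 profile was usually the later one on the side that was earlier in WT. This was so for 174 of 244 runs at Shield (71.3%), 221 of 315 at Bud (70.2%) and 238 of 305 at 24 hpf (78.0%). The same share over all windows with opposite sides was 64.8%, 65.2% and 71.8%, and it leans this way in part because the WT value enters the difference. At 24 hpf the side with the lower omf201 value had a median WT z-score of 0.386, and the side with the higher omf201 value -0.734. Constant late runs had opposite sides at 24 hpf in 70 of 104 cases (67.3%), constant early runs in 30 of 50, constant middle runs in 38 of 49 (77.6%) and switching runs in 167 of 253 (66.0%). All of these values come from the contrasts of the rule and carry no test.

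The differences returned to the genome's usual size within about 200 kb of a run. The median absolute difference at 24 hpf was 0.141 in the edge windows of the runs, 0.330 at 100 kb outside them and 0.485 at 200 kb, against 0.501 over all windows. At Bud it was 0.142, 0.312 and 0.433, and at Shield 0.130, 0.187 and 0.259. At preMBT, which the rule did not use, the same positions gave 0.407 in the edge windows and 0.402 and 0.445 outside, against 0.457 over all windows.

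**Figure D3:**
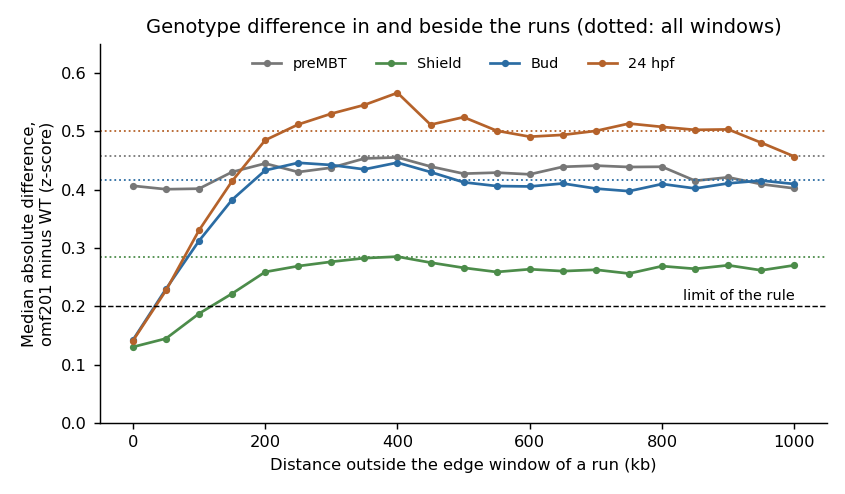
Median absolute genotype difference in z-score (vertical axis) in the edge windows of the runs and at distances up to 1000 kb outside them (horizontal axis), with 1 line per stage, the genome-wide median dotted and the limit of 0.2 dashed. The Shield, Bud and 24 hpf lines start at 0.130 to 0.142 as the rule requires and climb within 200 kb, while the preMBT line starts at 0.407 and stays between 0.401 and 0.455.

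Members were less often near the crests of the WT profile than other windows, a description without a test. At 24 hpf the mean WT profile had 897 peaks and 914 valleys, each the highest or lowest window within 500 kb. Of the members 6.95% lay within 100 kb of a peak, against 14.5% of all windows, and 16.02% lay within 100 kb of a valley, against 14.1%. The median distance to a peak was 440 kb for members and 370 kb for all windows, and to a valley 300 kb and 370 kb. With peaks taken as the highest window within 250 kb or within 1000 kb the shares near a peak were 12.7% against 19.2% and 4.60% against 8.79%. The WT profile was about as steep in members as elsewhere, with a median slope at 24 hpf of 0.209 per 100 kb against 0.197.

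Members were found on all 25 chromosomes, at unequal density. Chromosome 8 had the highest share, 297 of 5015 windows (5.92%) in 27 runs, followed by chromosome 9 with 257 of 5220 (4.92%), chromosome 24 with 168 of 3915 (4.29%) and chromosome 23 with 175 of 4284 (4.08%). The lowest shares were on chromosome 19 with 58 of 4470 (1.30%), chromosome 22 with 48 of 3483 (1.38%) and chromosome 14 with 70 of 4842 (1.45%). On chromosome 22, 14.0% of windows were under the limit at 24 hpf, against 26.4% on chromosome 8. Chromosome 7 held 252 members in 26 runs, 3.79% of its windows. Because members come in runs, a chromosome's share rests on few independent places, 5 runs on chromosome 22 and 9 on chromosome 19, and the differences between chromosomes were not tested.

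**Figure D4:**
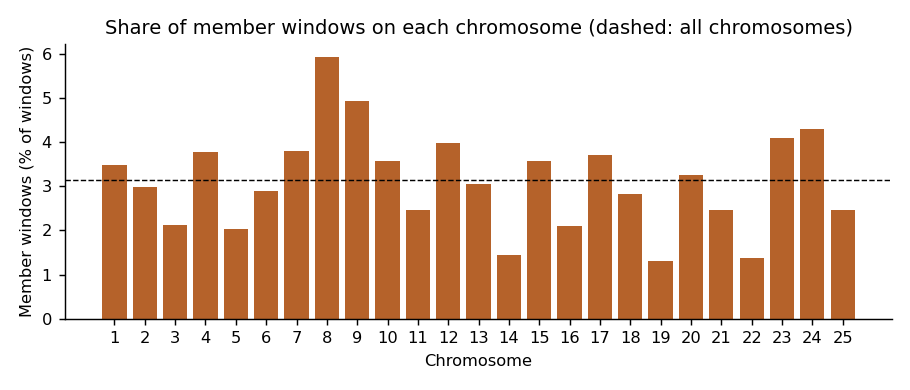
Share of each chromosome's windows that are low-difference windows (vertical axis, percent) for the 25 chromosomes, with the genome-wide 3.13% dashed. Chromosome 8 is the tallest bar at 5.92%, and chromosomes 19, 22 and 14 are the lowest at 1.30%, 1.38% and 1.45%.

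Position along the chromosome differed little. Windows within 5 Mb of the first or last window of a chromosome made up 13.7% of members against 16.8% of all windows, and those within 1 Mb 2.61% against 2.74%. The long arm of chromosome 4, which is rich in repeats and late replicating in zebrafish, held 60 members among 1790 windows (3.35%), and the rest of that chromosome 111 among 2728 (4.07%). Windows wider than 60 kb were 10.1% of members and 9.22% of all windows. Windows within 200 kb of a gap over 200 kb were 1.09% and 1.46%. The median G1 count per 60 kb, scaled to the library mean, was 0.988 in members and 0.990 over all windows.

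Among the timing profiles, preMBT was the stage at which the rule did not use the genotype contrast. On deposited z-scores, which share the G1 references of the rule, a smaller share of members than of all windows was called there. Before the mid-blastula transition 901 members (24.0%) had a difference under 0.2, against 23.3% of all windows, and the median absolute difference was 0.414 against 0.457. In limma 330 of 3757 members (8.78%) were called at an adjusted p under 0.05, with 146 higher and 184 lower in omf201, against a background of 12.7% of all windows (6.47% higher and 6.27% lower). Of the windows past the limit at all 3 later stages 15.6% were called. By WT class at 24 hpf, 248 of 1730 late members (14.3%), 53 of 1268 middle members (4.18%) and 29 of 759 early members (3.82%) were called. The shares called over all late, middle or early windows were not computed, so this split is not shown to be particular to members.

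The gap of 8.78% against 12.7% closed under 2 of the other readings of the same libraries. The preMBT ratios are divided by the same genotype-specific G1 references as the values of the rule, so the contrasts share that term. With 1 common G1 reference 18.0% of members and 18.3% of all windows were called, and with edgeR on the preMBT counts without any G1 reference 5.78% and 5.50% were called. The members' share stayed the lower one with unsmoothed log2 ratios (3.57% and 4.55%), with deposited log2 ratios (8.65% and 12.6%) and without each library in turn, where WT replicate 3 moved it most (5.48% and 8.68%).

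From Shield onward the rule held the means of the 2 genotypes within 0.2 of each other at both ends of a step. That bounds the difference between their steps, so a likeness of the genotypes' steps follows at least in part from the rule and is not read as a result. In WT, 2371 members (63.1% against a background of 65.4%) changed from preMBT to Shield in limma, 949 of them to a higher and 1422 to a lower z-score, where the background was 32.6% higher and 32.9% lower. From Shield to Bud 1931 changed (51.4% against 53.6%), 574 higher and 1357 lower, where the background was 25.7% higher and 27.9% lower. From Bud to 24 hpf 2357 changed (62.7% against 61.6%), 1115 higher and 1242 lower (background 30.7% and 30.8%). The WT values from Shield onward enter the rule, so these member counts and their directions are descriptions. The step from Shield to Bud also changed from whole embryos to sorted nuclei, and stage and kind of sample cannot be told apart. In 1 fit of all profile samples 34.2% of members changed from Shield to Bud and 34.1% from Bud to 24 hpf, against 33.7% and 35.7% of all windows.

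In omf201, 2226 members (59.2% against 57.8%) changed from preMBT to Shield, 908 higher and 1318 lower (background 29.0% and 28.8%). From Shield to Bud 1371 changed (36.5% against 55.5%), 403 higher and 968 lower (background 26.4% and 29.0%), and from Bud to 24 hpf 1674 changed (44.6% against 54.9%), 844 higher and 830 lower (background 26.7% and 28.2%). The median absolute omf201 step from Shield to Bud was 0.363 in members and 0.570 over all windows, while the WT step was 0.337 and 0.362. On deposited log2 ratios 69.7% of members and 68.8% of all windows changed from Bud to 24 hpf in omf201. The omf201 values at Shield, Bud and 24 hpf are used by the rule. It bounds how far a member's omf201 step can depart from its WT step. The lower z-score shares of members from Shield onward therefore follow in part from the rule and are descriptions. The difference between the genotypes' steps was not tested.

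From preMBT to Shield the late members mostly fell and the early members mostly rose, in both genotypes. Among members late in WT at 24 hpf the median WT change from preMBT to Shield was -0.775 and 998 of 1730 fell past the test, with 79 that rose. In omf201 the median was -0.668, with 891 that fell and 94 that rose. Among members early in WT at 24 hpf the median change was 0.983 in WT and 1.05 in omf201, with 471 and 460 of 759 that rose. The classes were taken at the last stage, so the direction of this change is partly fixed by how the classes were made. The same counts over all late or all early windows were not computed, so the pattern is not shown to be particular to members.

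In edgeR, G1 DNA, sorted as not yet replicated, differed between genotypes in a small share of members, near the share of all windows. In edgeR's quasi-likelihood test 84 members (2.24% against a background of 2.70%) differed at Bud, 44 higher and 40 lower in omf201 (background 1.16% and 1.54%). At 24 hpf 130 members (3.46% against 3.67%) differed, 63 higher and 67 lower (background 1.91% and 1.76%). Of late members 3.53% differed at Bud and 4.80% at 24 hpf, and of early members 1.98% and 3.29%. G1 shares over all late or all early windows were not computed, so this split describes members alone. DESeq2 called 0.293% of members and 0.841% of all windows at Bud, and 2.40% and 2.22% at 24 hpf. Without omf201 replicate 1 the Bud shares were 1.46% and 1.86%. At 24 hpf they were 1.36% and 1.80% without omf201 replicate 4, 1.57% and 2.13% without omf201 replicate 2, and 2.29% and 2.70% without WT replicate 3. The G1 reference divides every profile, so a copy number difference there enters the z-score differences.

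The longest runs show how the windows behave sample by sample. The named runs were the 5 longest, the 2 longest in each constant class, and the longest on the long arm of chromosome 4, 10 runs in all after overlaps. Coordinates are those of the deposited windows on GRCz11.

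The longest run, chr24:32720000-33340001, held 54 windows over 620.0 kb and was constant late. At 24 hpf the WT samples had mean z-scores of -1.46, -1.48, -1.31 and -1.25 and the omf201 samples -1.43, -1.34, -1.21 and -1.46. At Bud the WT samples were at -1.81, -1.84, -1.95 and -1.55 and the omf201 samples at -1.81, -1.71, -1.75 and -2.13. The genotypes overlapped at both stages and the whole run stayed among the latest parts of the genome. At Shield the 4 WT samples lay between -1.23 and -1.08, while omf201 replicate 3 stood at -0.657 and the other omf201 samples between -1.35 and -1.24. At preMBT the same run was early, with WT libraries at 0.916, 1.16 and 1.27 and omf201 libraries at 0.480, 0.757 and 0.274. The preMBT groups did not overlap, but limma called 8 of 54 windows, all lower in omf201. With the common G1 reference the mean difference turned from -0.614 to 0.900, with 29 windows called higher and 7 lower. On preMBT counts edgeR called 12 of the 54 windows, 10 higher and 2 lower in omf201. The lower preMBT value in omf201 thus held with the genotype-specific G1 references and not in these 2 readings. This run also had G1 differences, in 13 of 54 windows at Bud and in 13 at 24 hpf, and their part in the preMBT result was not tested.

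On chromosome 8 the run chr8:27610000-28080001, 42 windows over 470.0 kb, differed between genotypes at preMBT. The preMBT WT libraries had mean z-scores of -0.620, 0.169 and -0.00584 and the omf201 libraries 0.714, 2.08 and 1.94. The groups did not overlap, with a mean difference of 1.73 and a median SE of 0.413, and all 42 windows were called higher in omf201 (limma, adjusted p 0.0006 to 0.0127). With the common G1 reference all 42 were called as well, and edgeR on counts called 12, all higher. At Shield the WT samples lay between -0.184 and -0.0449 and the omf201 samples between -0.324 and -0.0473, at Bud between -0.721 and -0.490 against -0.713 and -0.404, and at 24 hpf between -0.862 and -0.476 against -0.827 and -0.461. The genotypes overlapped at each of these stages, but at Shield only through omf201 replicate 3, as the other omf201 samples lay between -0.324 and -0.297, below every WT sample. From preMBT to Shield the omf201 mean changed by -1.83 with 42 of 42 windows called, and the WT mean by 0.0238 with none called in limma at an adjusted p of 0.134 to 0.995.

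The run on the long arm of chromosome 4, chr4:51050000-51370001, held 9 wide windows and showed the opposite preMBT difference. The WT libraries had mean z-scores of 4.50, 2.21 and 2.86 at preMBT and the omf201 libraries 0.820, 0.0951 and -0.677. All 9 windows were called lower in omf201 (limma, mean difference -3.11, median SE 0.440), as they were by edgeR on counts and with the common G1 reference. At Shield the WT samples were widely spread, at 0.108, -0.625, 1.28 and 1.11, and the omf201 samples were at -0.00614, 0.437, 1.22 and 0.336. At 24 hpf the WT samples lay between -1.84 and -1.26 and the omf201 samples between -1.94 and -1.30. The small difference at Shield therefore stood beside an SD of 0.895 between WT samples.

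Both named constant early runs had an earlier position after preMBT than at preMBT, but their early place from Shield onward was set by the choice. In chr15:20110000-20660001, 50 windows over 550.0 kb, the preMBT WT libraries were at 0.0466, 0.000743 and 0.166 and the omf201 libraries at -0.608, -0.259 and -0.463. The groups did not overlap, and none of the 50 windows was called in limma at an adjusted p of 0.293 to 0.612 (mean difference -0.514). At 24 hpf the run's WT samples were at 1.29, 1.38, 1.39 and 1.31 and the omf201 samples at 1.42, 1.62, 1.33 and 1.07, with the WT range inside the omf201 range. In chr1:46510000-46840001, 28 windows, the preMBT WT libraries were at 0.448, 0.312 and 0.548 and the omf201 libraries at -0.714, -0.954 and -0.495, and 17 of 28 windows were called lower. With the common G1 reference the mean difference shrank from -1.16 to -0.372 and none was called (adjusted p 0.207 to 0.893), nor by edgeR on counts (0.0985 to 0.999). This run sat at a change of sign, with differences at its sides of 1.12 and -0.705 at 24 hpf, 0.548 and -0.318 at Bud and 0.237 and -0.172 at Shield.

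**Figure D5:**
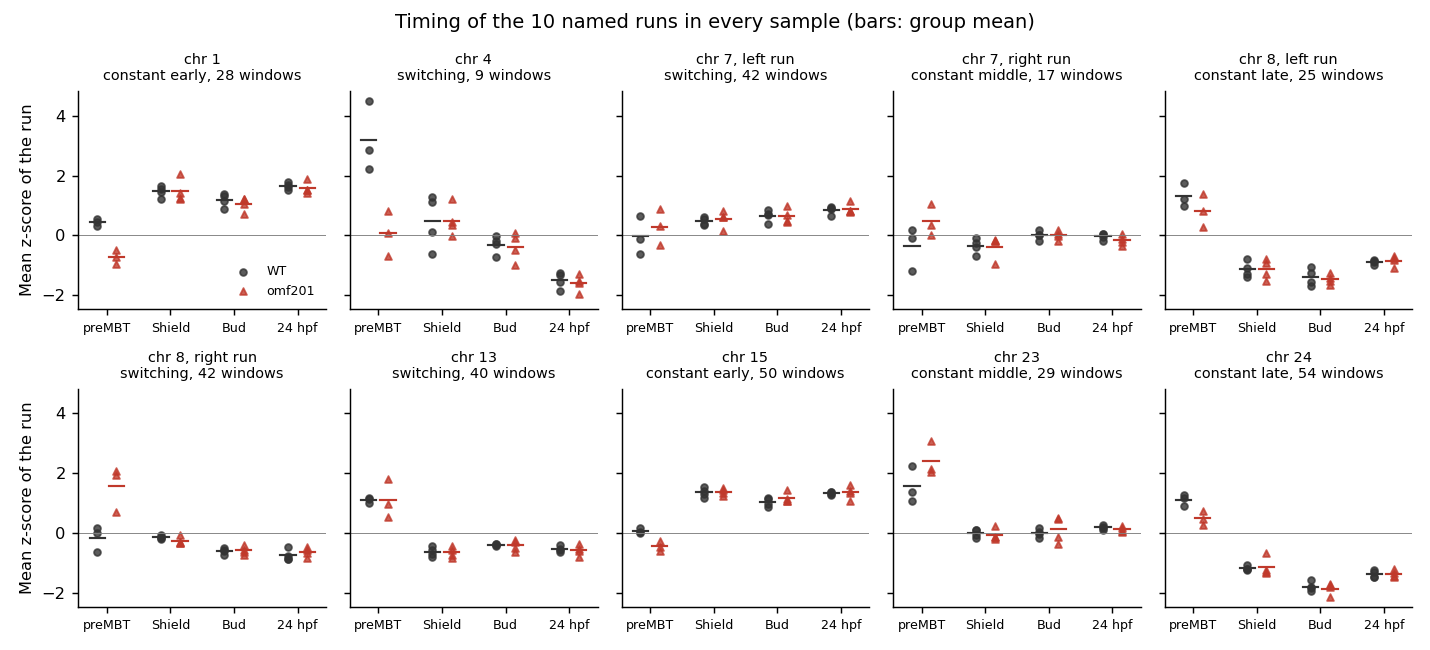
Mean z-score of each of the 10 named runs (vertical axis, higher is earlier) at the 4 stages, with a circle for each WT and a triangle for each omf201 sample and bars for group means. The genotypes overlap in every run from Shield onward, as the rule requires of the means, and the preMBT points separate on chromosomes 1, 4, 15, 24 and the right run of chromosome 8.

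The constant late run chr8:3970000-4280001, 25 windows, fell from preMBT to Shield in both genotypes. Its WT libraries were at 1.74, 1.203 and 0.992 at preMBT and its omf201 libraries at 1.39, 0.267 and 0.828, which overlapped. At Shield both genotypes averaged -1.13, and all 25 windows were called lower than at preMBT in each genotype, with changes of -2.45 in WT and -1.96 in omf201. The run was named for being constant late, and the rule held the genotype means together at Shield. That it was late at Shield in both genotypes was therefore set by the choice. The run chr13:2210000-2760001, 40 windows over 550.0 kb, had a preMBT mean of 1.11 ± 0.0943 (SD, n = 3) in WT and 1.11 ± 0.644 (SD, n = 3) in omf201, and its mean difference was -0.00073. With the common G1 reference that difference was 0.677, and 19 of 40 windows were called higher. On preMBT counts edgeR called 5 of the 40, 1 higher and 4 lower in omf201.

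The constant middle runs differed in how tightly the samples agreed. In chr23:220000-610001, 29 windows near a chromosome end, the Bud WT samples lay between -0.169 and 0.179 and the omf201 samples at 0.484, -0.350, 0.512 and -0.129. The omf201 samples thus fell on both sides of WT and averaged to a small difference. In chr7:65380000-65620001, 17 windows, the 24 hpf WT samples lay between -0.176 and 0.0532 and the omf201 samples between -0.337 and 0.0615. Its preMBT difference of 0.8288 had no window called in limma (adjusted p 0.111 to 0.250) and became -0.519 with the common G1 reference, with 2 windows called lower in omf201. On counts edgeR called 6 of the 17 windows, all lower in omf201, with a mean log2 difference of -0.0621. In G1 DNA the mean log2 difference was -0.0528 at Bud, with no window called, and -0.0966 at 24 hpf, with 2 called lower. The part of the G1 differences in the preMBT result was not tested.

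The switching run chr7:14180000-14650001, 42 windows over 470.0 kb, had a higher mean z-score at each later stage. In stage order its WT means were -0.0328, 0.470, 0.656 and 0.856, and its omf201 means were 0.286, 0.556, 0.652 and 0.889. In WT 23 of its windows rose and 1 fell from preMBT to Shield, 16 rose from Shield to Bud and 12 rose from Bud to 24 hpf. In omf201 no window passed limma's test in the first of these steps (adjusted p 0.0944 to 0.968), 3 rose and 2 fell from Shield to Bud, and 7 rose in the last.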

How the data were processed

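The windows and the comparisons were chosen with earlier results of these data known. Reads were handled with fastp, BWA and Picard on GRCz11, per the submitters' processing notes, within RepliTimer 1.0.11, per the labels. The authors deposited whole-number counts per window, ratios of mean-scaled counts to a G1 reference, smoothed ratios, their log2 values, and z-scores, a score without a unit. Recomputation from the deposited counts matched the z-scores to within 5e-07. The reference was the median of 8 G1 libraries per genotype, and smoothing was a cubic spline. Because smoothing spreads counts over neighbouring windows, calls at adjacent windows are not independent.

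Shield libraries that agreed in a chi-square test over 1 Mb bins (p over 0.05) were averaged. limma 3.58.1 in R 4.3.3 tested z-scores over all 120059 windows, 1 fit per comparison. edgeR 4.0.16 with TMM scaling tested G1 counts over 120082 windows. A call was a Benjamini-Hochberg adjusted p under 0.05. DESeq2 1.42.0 was an alternative for G1 counts. The fits were tested on simulated data. The named runs are the 5 longest runs, the 2 longest of each constant WT class and the longest on the long arm of chromosome 4, taken from position 28000000. Genes and sequences inside the runs were not analysed here, as no annotation of the windows' build was used. The remaining steps ran in Python 3.11.15 (numpy 2.4.6, pandas 2.3.3, scipy 1.17.1).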

Additional observations from a re-analysis of the deposited data

Results flagged for a closer look

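In 78 groups of 4 samples, covering the named runs and the class levels, the sample farthest from the others was examined with Dixon's ratio, and 5 groups had one past the 95% critical value. Chance gives about 5% of groups. In the constant middle run on chromosome 7 at Shield, omf201 replicate 4 had a mean z-score of -0.964 against -0.197 to -0.158 in the other omf201 samples. At the same stage omf201 replicate 3 stood above the others in the run from 27610000 on chromosome 8, at -0.0473 against -0.324 to -0.297, and in the longest run on chromosome 24, at -0.657 against -1.35 to -1.24. That replicate was also highest in the mean log2 ratio of members that are middle in WT at 24 hpf, at 0.0131 against 0.0064 to 0.0070. At 24 hpf, omf201 replicate 3 had 1.14 in the switching run on chromosome 7, against 0.785 to 0.820.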

How the results depend on the processing

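Of 180 alternatives in all, 145 gave a value close to the reported one, 33 moved it and 2 turned its sign. Close was not the same measure throughout. For most shares it was a set factor, wide enough that 5.88% called at preMBT counted as close to 8.78%. For the early share and the preMBT differences of runs it was the SD between samples, and 0 of 11 alternatives of the early share met it. A close count need not mean the same windows: the log2 version of the rule shared 14.0% of the members and the common G1 version 38.4%. The share of windows under the limit was 0.411% with a limit of 0.1, 8.99% with 0.3 and 2.06% with unsmoothed ratios, against 3.13%. It ran from 2.89% to 3.27% when each sample was left out. The early share at 24 hpf (20.2%, with an SD of 0.191 between WT samples) was 19.6% with tertiles as class limits, 19.0% with ranks of unsmoothed ratios, 17.2% and 23.4% with limits of 0.1 and 0.3, 21.9% with the common G1 reference, 23.6% for members chosen on unsmoothed ratios and 19.9% to 20.8% without each WT sample. For members chosen on median-centred log2 ratios, a setting tried after seeing the data, it was 43.1%, above the 34.3% of all windows. The cause was not tested.

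Of members 8.78% were called at preMBT. This became 36.6% in 1 fit of all profile samples, where the background was 40.3%, 3.57% with unsmoothed log2 ratios, 18.0% with the common G1 reference, 5.78% with edgeR on counts and 5.48% to 6.73% without each library. Stage steps moved to 34.2% and 34.1% in 1 fit (WT, Shield to Bud and Bud to 24 hpf) and to 69.7% on log2 ratios (omf201, Bud to 24 hpf). G1 calls at Bud were 0.293% with DESeq2, 1.42% for members at 0.1 (same fit, background 2.70%) and 1.46% to 1.84% without each sample. At 24 hpf they were 1.36% to 3.43% without each sample. The G1 shares over all windows fell too in the settings for which they are given above. The preMBT difference turned from 0.8288 to -0.519 in the run from 65380000 on chromosome 7 and from -0.614 to 0.900 in the longest run with the common G1 reference, also tried after seeing the data. The cause was not tested.

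Deviations of same-numbered samples correlated at -0.0345 to 0.0032 at preMBT, -0.112 to 0.0035 for WT from Bud to 24 hpf, 0.0315 to 0.183 for omf201, and near 0 for G1, so the numbers were not taken to pair samples. With the replicate number as a block 8.86% of members and 12.9% of all windows were called at preMBT. From Bud to 24 hpf 61.7% (WT) and 45.5% (omf201) of members were called with the block. For G1 the shares of members were 2.26% at Bud and 3.46% at 24 hpf. Without the block the backgrounds of these 4 comparisons were 61.6%, 54.9%, 2.70% and 3.67%. The gene lists planned for the runs were not run. At preMBT the median SE of a window's difference was 0.399, so differences under the limit of the rule could not be detected there.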

Other observations

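Full reversals of class were rare among the low-difference windows, as they were among all windows. In WT, 106 members (2.82% against 2.42% of all windows) went from early at Shield to late at 24 hpf, and 68 (1.81% against 3.54%) went from late to early. The median WT slope of members was 0.243 per 100 kb at Shield and 0.233 at Bud, against 0.252 and 0.228 over all windows.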
